A study of Mus musculus with 9 samples.

Results

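The type I interferon response genes described here are 35 of the 46517 rows of a deposited expression table, chosen by symbol from a list of genes known to be induced by type I interferon. RNA was measured in 3 wild-type spleens (mice 1, 4 and 5), 4 plckGAPDH spleens (animals 343, 508 and 547, and a column with no animal number, called the unnumbered spleen) and 2 plckGAPDH lymph nodes (animals 455 and 508, the latter also a source of a spleen). All were C57BL/6 mice aged over 18 months. The plckGAPDH line carries a Gapdh transgene driven by the Lck promoter, which is active in T cells, and the labels' protocols describe these mice as developing tumours and the RNA as coming from splenocytes. No wild-type lymph node and no interferon treatment is among the groups, so the comparisons describe a response at whatever level it ran in old mice. A spleen titled 331 has no column under that number, so it is not settled that the plckGAPDH spleens come from 4 animals, and no label says which samples were prepared apart, so p-values refer to the spread of these samples alone. The sequencer named in the design text is not the one in the protocol.

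Type I interferons (IFN-alpha, IFN-beta and their relatives) bind a receptor of the chains IFNAR1 and IFNAR2, whose kinases JAK1 and TYK2 phosphorylate STAT2. STAT2 acts with IRF9 in the factor ISGF3, which binds interferon-stimulated response elements in promoters and switches on the response genes. In the spleen, plasmacytoid dendritic cells are a known source of IFN-alpha, while almost every cell type can respond. The products sense foreign nucleic acids (RIG-I, MDA5, PKR), block viral RNA and protein synthesis (IFIT and OAS proteins), modify proteins with ISG15, and restrain the signal itself (USP18).

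The response element is the sequence these genes are known to share, so promoters that hold it are shown for 6 members followed through the results. RefSeq promoter windows of build GRCm38.p6, from 250 bases before to 50 bases after each start, were found for 26 of the 35 members. The core searched was GAAANNGAAA, on both strands and with overlapping matches counted. It was present in 14 of the 26 members (53.8%), in 6 of them at 2 or more places, against 1079 of 27025 genes with a window (3.99%). Each line gives 60 bases in the direction of the gene, with the core in capitals. A core on the other strand starts with TTTC.
Ifit3, chr19:34583382-34583441, plus strand, positions -147 to -88 from the start: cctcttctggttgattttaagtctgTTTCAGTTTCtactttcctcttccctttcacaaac
Ifit1, chr19:34640779-34640838, plus strand, positions -110 to -51: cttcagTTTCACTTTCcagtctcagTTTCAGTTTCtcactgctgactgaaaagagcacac
Isg15, chr4:156200850-156200909, minus strand, positions -91 to -32: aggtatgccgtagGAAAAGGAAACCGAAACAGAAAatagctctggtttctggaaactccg
Stat2, chr10:128270251-128270310, plus strand, positions -247 to -188: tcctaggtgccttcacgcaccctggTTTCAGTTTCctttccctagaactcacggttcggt
Rsad2, chr12:26456538-26456597, minus strand, positions -145 to -86: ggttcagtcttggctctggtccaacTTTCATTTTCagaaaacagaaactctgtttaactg
Gbp3, chr3:142559980-142560039, plus strand, positions -64 to -5: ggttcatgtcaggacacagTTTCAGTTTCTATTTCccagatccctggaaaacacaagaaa
Isg15 held 3 overlapping cores, Gbp3 held 2 overlapping ones, and Ifit1 held 2 that lay apart. A second core of Ifit3, at positions -156 to -147, ends on the first base of the stretch shown. No match was found in the windows of Samd9l, Irf7, Irf9, Ifit2, Oasl1 and Xaf1, which says only that these letters are not there. A match is a description of the letters and not evidence of binding in these samples.

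The values are FPKM, fragments per kilobase of gene and scaled to the total fragments of the library, so an abundant transcript pushes down the values of all others in the same library. Estimated depth ran from 23800000 to 34400000 fragments. The libraries differed in content in ways that touch the results. Mitochondrial ribosomal RNA took 23.7% to 53.6% of fragments, and immunoglobulin genes took 11.3% in plckGAPDH spleen 508 and 5.59% in the lymph node of the same animal. Wild-type spleen 5 was the only library with the Y-linked Eif2s3y (30.5 FPKM, listed at 0 in the other 8) and nearly lacked Xist (0.09 FPKM against 31.2 to 59.7). The same spleen held 74191 FPKM summed over 8 erythroid genes, against 1.93 to 2203 in the other spleens. Neutrophil genes summed to 5.13 FPKM in wild-type spleen 4 and to between 557 and 3543 in the other spleens. In bulk RNA, fewer cells of a type and less RNA per cell cannot be told apart.

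In the spleens, most response genes had lower values in plckGAPDH mice, but only Samd9l passed the test. Genes with at least 1 FPKM in 3 spleens were compared with limma on log2(FPKM + 1), a scale that understates changes of low genes, and were called where the false discovery rate (FDR, Benjamini-Hochberg) was below 0.05 over all 12607 genes tested. Of the 35 members, 34 were tested, since Ifi44 missed the filter. One direction prevailed: 31 of the 34 log2 fold changes were negative, against 48.4% of all genes tested. The members' median was -0.70, against 0.02 over all genes. Response genes read in the same 7 spleens can move together, so counts of members are not counts of independent observations. Of the members, 1 was called lower, against 1.23% of all genes, and 0 were called higher, against 0.206%. At an unadjusted p under 0.05 there were 8 lower members, against 4.67% of all genes, and 0 higher ones, against 4.18%. Groups did not overlap for 3 lower members, Samd9l, Ddx58 and Oasl1, against 3.88% of all genes, and for 0 higher ones, against 3.39%.

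**Figure D1:**
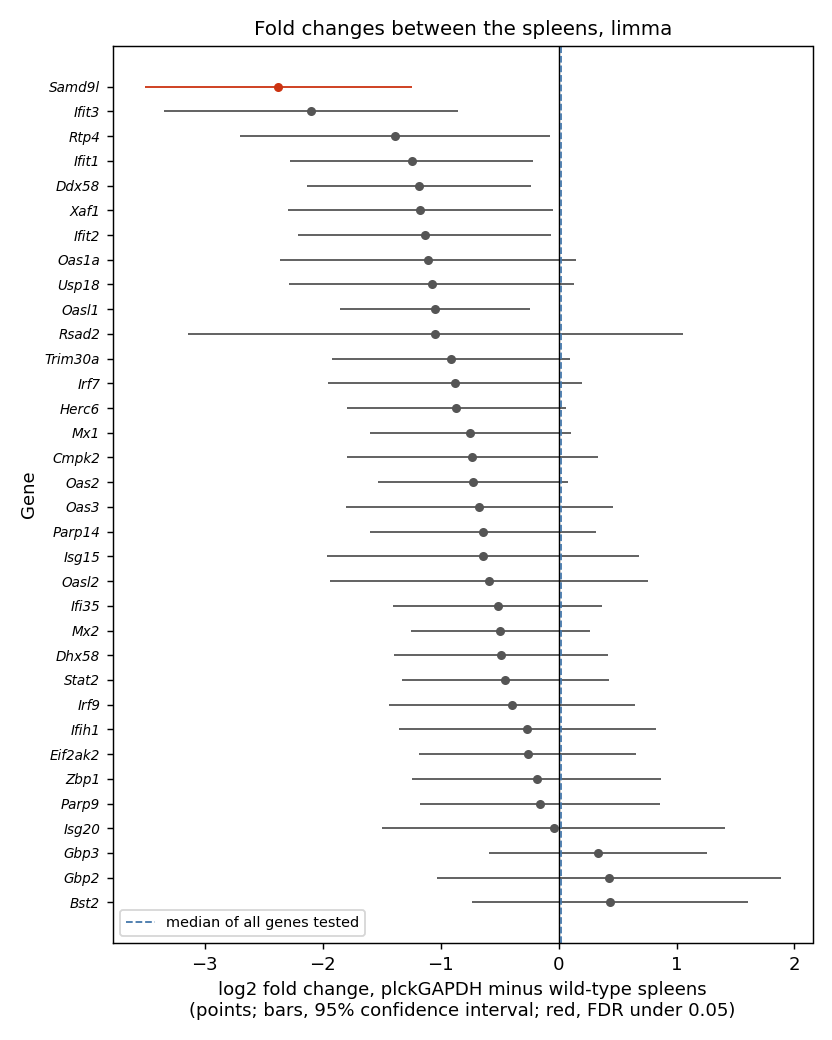
Log2 fold changes of log2(FPKM + 1), plckGAPDH minus wild-type spleens, for the 34 members tested, sorted by size, with 95% confidence intervals from limma. The points of 31 members lie left of 0, 8 intervals exclude 0, and only Samd9l (red) passes an FDR of 0.05. The dashed line is the median of all 12607 genes tested.

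The count of 1 rests on particular libraries. It was 0 when wild-type spleen 4 or 5 or plckGAPDH spleen 508 was left out, where 0.677%, 0.547% and 1.15% of all genes were called lower. It was 2 when the unnumbered spleen was left out and Ifit3 joined Samd9l, against 1.54% of all genes. Without wild-type spleen 1 the 1 called member was Ifit3, against 0.726% of all genes. The non-overlapping members numbered 12 without wild-type spleen 1, where 4.26% of all genes tested were lower in this way, and also 12 without the unnumbered one, where 7.26% were. Weighting samples by quality, with 24.8 for wild-type spleen 1 and 0.296 to 2.04 for the others, turned the direction: the median became 0.065, from 19 positive and 15 negative members. Without wild-type spleen 5 and plckGAPDH spleen 508, an alternative chosen after seeing the data, 22 of 33 members were negative, with a median of -0.14 against 0.29 over all genes, and 0 were called.

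Samd9l, which encodes a cytoplasmic protein that restrains cell growth and viral replication, was the 1 member called lower. It lies at chr6:3372257-3399572 on the minus strand (GRCm38, GENCODE coordinates). Its level was 55.8, 34.2 and 75.1 FPKM in wild-type spleens 1, 4 and 5. It was 9.87, 3.23 and 11.5 FPKM in plckGAPDH spleens 343, 508 and 547 and 18.4 FPKM in the unnumbered spleen. Every plckGAPDH spleen lay below every wild-type spleen, and the means were 10.7 ± 6.22 (SD, n = 4) and 55.0 ± 20.5 FPKM (SD, n = 3). The log2 fold change was -2.38 (SE 0.52, limma FDR 0.0475). Over the alternatives run it stayed between -2.68 and -1.69. The groups stayed apart in each, but only the alternatives that rescaled the libraries could have changed that. The call did not hold in 11 of 19 alternatives, among them leaving out wild-type spleen 5 (FDR 0.287), 4 (0.109) or 1 (0.146), or plckGAPDH spleen 508 (0.0698). Nodes 455 and 508, at 9.2 and 2.52 FPKM, lay within and below the range of the plckGAPDH spleens.

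**Figure D2:**
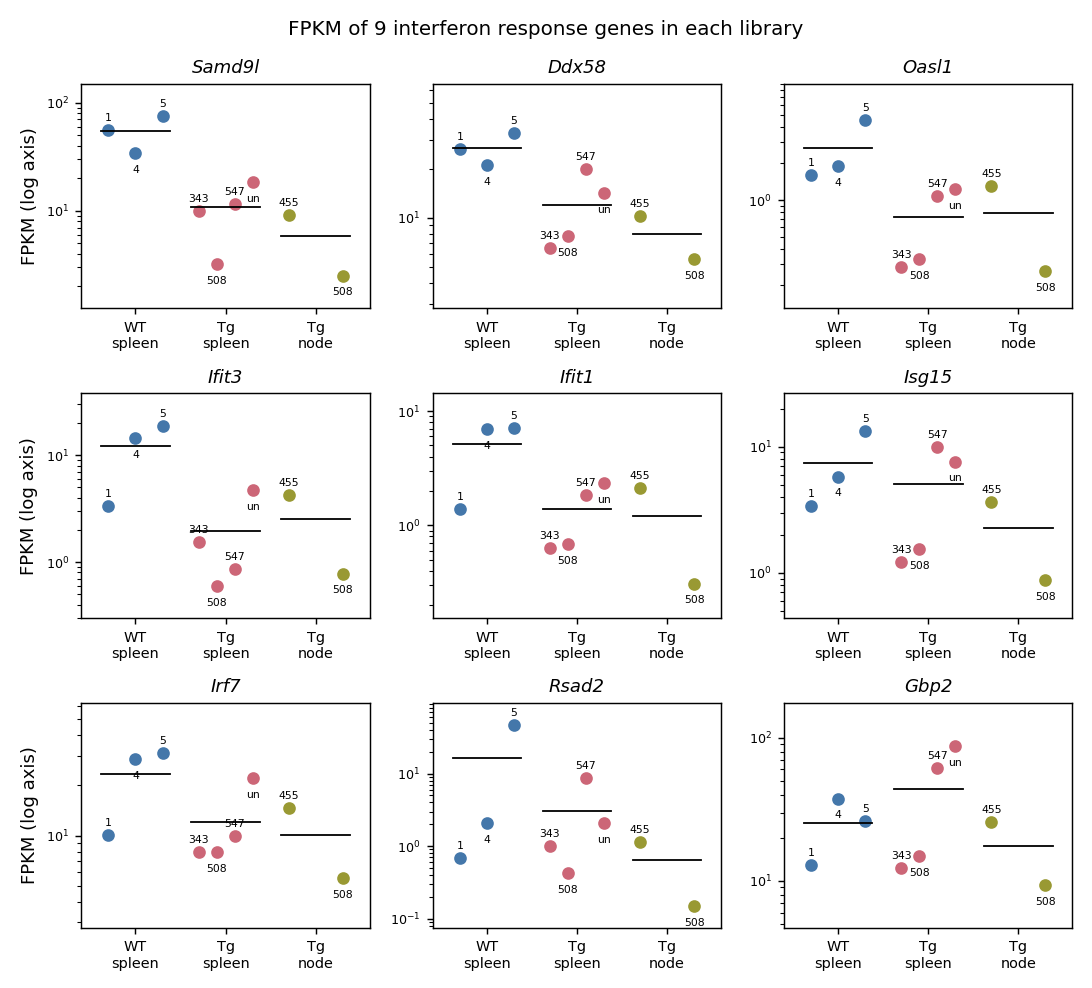
FPKM on a log axis of 9 members in 3 wild-type (WT) spleens, 4 plckGAPDH (Tg) spleens and 2 plckGAPDH lymph nodes, labelled by animal (un, unnumbered), with a bar at each group's mean. Samd9l, Ddx58 and Oasl1 separate the spleens by genotype, while for the others shown plckGAPDH values reach into the wild-type range.

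In what follows, values are given in the order wild-type spleens 1, 4 and 5, then plckGAPDH spleens 343, 508, 547 and the unnumbered one, then lymph nodes 455 and 508. Among the 5 sensors and RNA-activated members, all 5 fold changes were negative, with a median of -0.26, and none was called. Ddx58, which encodes the RNA sensor RIG-I, was at 26.3, 20.9 and 33.0 FPKM, then 6.58, 7.74, 19.8 and 14.2, then 10.2 and 5.64 in the nodes. All 4 plckGAPDH spleens lay below all wild-type spleens, the nearest being spleen 547 and wild-type spleen 4. The log2 fold change was -1.18 (SE 0.44), which missed the FDR (0.381, limma). The other sensors overlapped: Ifih1 (MDA5) ranged from 2.33 to 13.2 FPKM over the spleens, Dhx58 (LGP2, a modulator of both) from 1.71 to 8.29, Zbp1 (a sensor of Z-form nucleic acids) from 12.9 to 47.9 and Eif2ak2 (the kinase PKR) from 4.40 to 13.9. Ifih1, Zbp1 and Eif2ak2 were highest in the unnumbered plckGAPDH spleen, where Ddx58 was below the wild-type range. Members of this group therefore did not share 1 order across the spleens.

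The 3 transcription factors of the list had negative fold changes, and none was called. Irf7, the factor that amplifies IFN-alpha production, was at 10.1, 28.8 and 31.2 FPKM, then 7.94, 7.94, 9.99 and 22.3, then 14.7 and 5.57 in the nodes. Spleens 343, 508 and 547 lay just under wild-type spleen 1, and the unnumbered one lay between wild-type spleens 1 and 4. The log2 fold change was -0.88 (SE 0.50, limma FDR 0.720). Irf9, the DNA-binding part of ISGF3, was at 26.8, 19.8 and 46.7 FPKM, then 17.0, 12.0, 34.6 and 32.5, then 11.5 and 8.45. Stat2, its partner, was at 8.74, 6.83 and 11.1 FPKM, then 8.34, 3.23, 5.45 and 9.04, then 4.09 and 2.5. Their fold changes, -0.40 (SE 0.48) and -0.45 (SE 0.40), were smaller than that of Irf7 and close to or below their errors. For both, spleen 508 was the lowest spleen.

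All 3 Ifit members, whose products hold back translation of viral RNAs, had an unadjusted limma p under 0.05, and none was called. Their median log2 fold change was -1.25. Ifit3 was at 3.32, 14.5 and 18.9 FPKM, then 1.54, 0.60, 0.87 and 4.73, then 4.24 and 0.78. Ifit1 was at 1.39, 6.94 and 7.13 FPKM, then 0.63, 0.69, 1.83 and 2.36, then 2.13 and 0.31. Ifit2 was at 3.10, 8.33 and 9.55 FPKM, then 2.15, 0.84, 2.10 and 6.15, then 3.21 and 0.74. In all 3 genes, wild-type spleens 4 and 5 exceeded every plckGAPDH spleen, and wild-type spleen 1 was exceeded by the unnumbered spleen and, for Ifit1, by spleen 547. The fold changes were -2.10 for Ifit3 (SE 0.57, limma FDR 0.141), -1.25 for Ifit1 (SE 0.47, limma FDR 0.407) and -1.13 for Ifit2 (SE 0.49, limma FDR 0.522). Wild-type spleens thus differed among themselves by 5.70 times for Ifit3 and 5.13 times for Ifit1. Estimated fragments behind Ifit3 ran from 23 (plckGAPDH spleen 508) to 742 (wild-type spleen 5), so counting error is larger relative to the value at the low end. The Ifit genes lie side by side (chr19:34550694-34650009), and Ifit3 has a close copy, Ifit3b, with which reads may have been shared.

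The 5 OAS members had a median of -0.72, all negative, and none was called. OAS enzymes answer double-stranded RNA by making short oligoadenylates that switch on the nuclease RNase L. Oasl1, a family member known to hold back translation of Irf7 mRNA, was at 1.59, 1.91 and 4.50 FPKM, then 0.28, 0.33, 1.08 and 1.22, then 1.30 and 0.26. Its groups did not overlap, and spleens 343 and 508 were well below 547 and the unnumbered spleen. The log2 fold change was -1.05 (SE 0.37, limma FDR 0.336). Oas1a ranged from 1.69 to 14.0 FPKM over the spleens, with its highest value in the unnumbered plckGAPDH spleen. Oas2 ranged from 0.14 to 2.85, Oas3 from 0.71 to 5.97 and Oasl2 from 1.33 to 10.6 FPKM, each lowest in spleen 508. Oas1a has close copies in the same locus, so its reads may be shared.

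The 4 GTPases were split, 2 positive and 2 negative, with a median of -0.08, and none was called. Gbp2 and Gbp3 encode guanylate-binding proteins that attack intracellular microbes and are also strongly induced by interferon gamma. Gbp2 was at 12.9, 37.6 and 26.1 FPKM, then 12.2, 15.0, 61.1 and 87.0, then 25.8 and 9.40. Gbp3 was at 17.0, 19.0 and 18.7 FPKM, then 14.3, 17.1, 37.9 and 30.8, then 10.4 and 8.72. Both were highest in spleen 547 and the unnumbered spleen, above every wild-type spleen, while spleen 343 lay below the wild-type range and spleen 508 near its lower end. The fold changes, 0.43 (SE 0.67) and 0.33 (SE 0.42), were smaller than their errors. With sample quality weights, when 7.07% of all genes tested were called higher, Gbp2 was the 1 member among them, at 1.81 (SE 0.46, limma FDR 0.0265). Mx1 ranged from 0.83 to 5.35 FPKM over the spleens and Mx2 from 0.06 to 1.98, both lowest in spleen 508. In C57BL/6 mice the Mx genes are known not to give functional protein, and Mx2 is annotated as a polymorphic pseudogene.

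All 3 fold changes of the ISG15 system were negative (median -0.87), and none was called. Isg15, a ubiquitin-like protein attached to newly made proteins, was at 3.39, 5.79 and 13.2 FPKM, then 1.23, 1.55, 9.99 and 7.6, then 3.65 and 0.88. Usp18, which removes ISG15 and blocks signalling at IFNAR2, was at 5.10, 7.5 and 10.1 FPKM, then 2.81, 0.40, 8.85 and 3.62, then 2.77 and 0.41. For both genes spleen 547 lay inside the wild-type range, and spleens 343 and 508 lay below it. The fold changes were -0.64 for Isg15 (SE 0.61, limma FDR 0.916) and -1.08 for Usp18 (SE 0.56, limma FDR 0.653). Usp18 in spleen 508 was 0.0528 times the wild-type mean, and Isg15 0.208 times. Herc6, the main ISG15 ligase of mice, ranged from 1.88 to 10.95 FPKM over the spleens, with its lowest value in spleen 508.

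**Figure D3:**
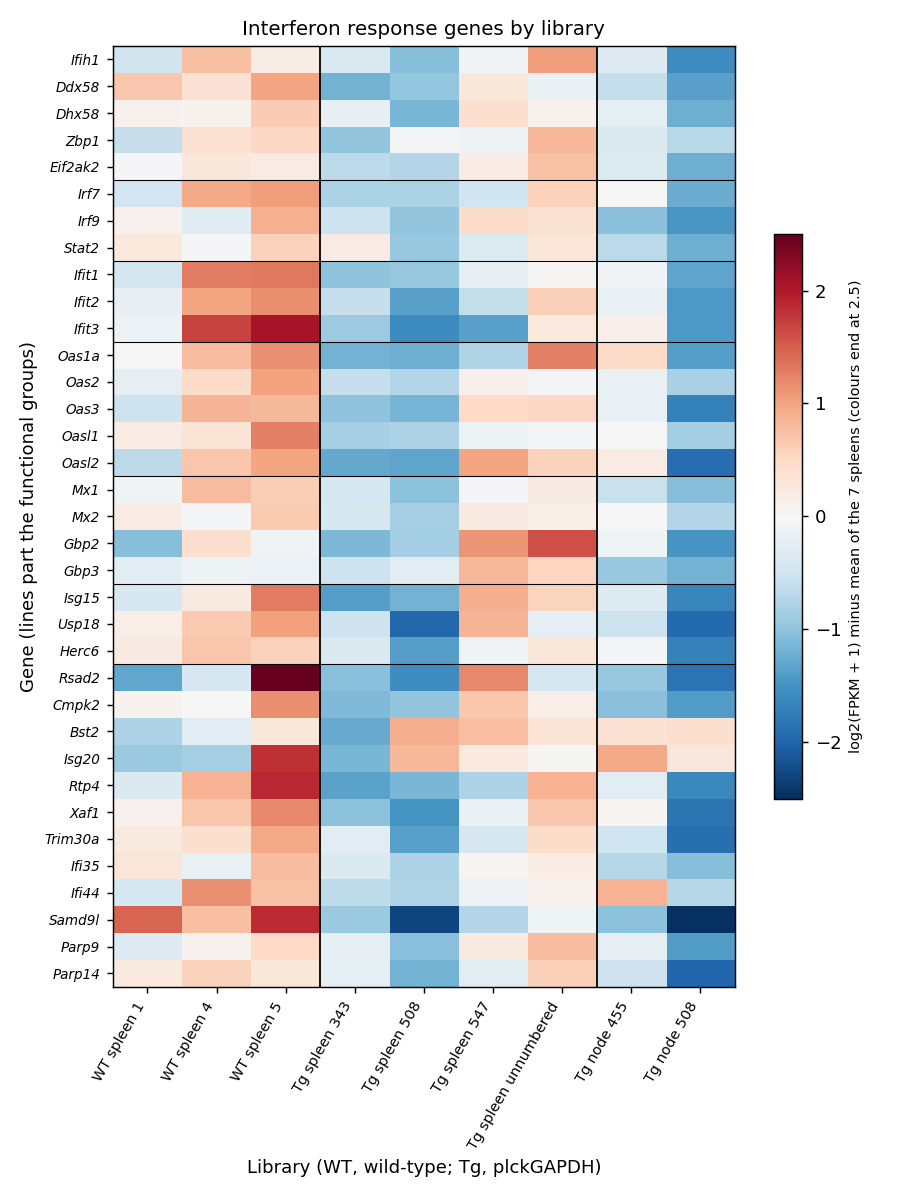
Colour shows log2(FPKM + 1) of each of the 35 members in each of the 9 libraries, minus that gene's mean over the 7 spleens, with genes parted into functional groups by lines. Red prevails in wild-type spleen 5 and blue in plckGAPDH spleens 343 and 508 and in lymph node 508, with Bst2 and Isg20 as exceptions in the samples of animal 508.

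Among the 12 other effectors, 11 were tested, 10 had negative fold changes, and Samd9l was the 1 called. Rsad2 encodes viperin, which makes a chain-terminating nucleotide. It was at 0.68, 2.09 and 46.6 FPKM, then 1.02, 0.42, 8.59 and 2.10, then 1.14 and 0.15. Wild-type spleen 5 stood far above every other library, and wild-type spleen 1 lay below 3 of the 4 plckGAPDH spleens. The highest to lowest ratio over the spleens was 111, the largest of the 34 members tested. Its log2 fold change of -1.05 (SE 0.96) became 0.42 without wild-type spleen 5. Cmpk2, the nucleotide kinase encoded next to it (both within chr12:26442746-26479837), was also highest in wild-type spleen 5, at 8.22 FPKM, against 0.93 to 5.56 in the other spleens.

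Rtp4, a chaperone of membrane receptors, was at 2.99, 8.34 and 17.9 FPKM, then 1.03, 1.33, 2.02 and 8.41, then 3.24 and 0.69. Xaf1, an antagonist of the apoptosis inhibitor XIAP, was at 8.61, 13.5 and 19.5 FPKM, then 3.39, 2.17, 6.94 and 13.3, then 8.21 and 1.5. In both genes 3 plckGAPDH spleens lay below every wild-type spleen and the unnumbered spleen lay among them. The fold changes were -1.39 (SE 0.60, limma FDR 0.523) and -1.17 (SE 0.52, limma FDR 0.530). Parp14, an ADP-ribosyltransferase, was at 19.4, 24.7 and 19.9 FPKM, then 13.7, 6.62, 13.2 and 24.9, then 11.1 and 3.37. Its unnumbered spleen was the highest of all libraries, and its other plckGAPDH spleens were below the wild-type range (log2 fold change -0.64, SE 0.44). Parp9, its partner, ranged from 9.86 to 37.3 FPKM over the spleens, Trim30a, a regulator of NF-kB signalling, from 9.14 to 49.1, and Ifi35 from 10.6 to 32.6. Ifi44 was at 0.34, 3.04 and 2.02 FPKM, then 0.18, 0.09, 0.65 and 0.97, then 2.36 and 0.11, and was highest in wild-type spleen 4.

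Bst2 and Isg20 had another order. Bst2 (tetherin, which holds budding viruses at the cell surface) was at 14.6, 21.4 and 31.5 FPKM, then 10.2, 48.9, 44.1 and 32.9, then 33.4 and 34.1. Isg20, an RNA exonuclease, was at 7.99, 8.67 and 59.9 FPKM, then 6.71, 29.0, 19.3 and 16.5, then 32.1 and 19.8. Spleen 508, in the deposited values the lowest spleen for 22 of the 34 members tested, was the highest for Bst2 and the next after wild-type spleen 5 for Isg20. Both genes are also known to be expressed in plasma cells. The 6 plasma cell markers (Jchain, Sdc1, Prdm1, Xbp1, Mzb1 and Tnfrsf17) summed to 4393 FPKM in spleen 508 and to 2569 and 2319 in nodes 455 and 508, against 216 to 324 in wild-type and 70.4 to 304 in the other plckGAPDH spleens. Most of the sums in spleen 508 and the nodes came from Jchain (3472 FPKM in spleen 508, 1886 and 1661 in nodes 455 and 508). Sdc1, Prdm1, Xbp1 and Mzb1 were also highest in spleen 508 among the spleens. Tnfrsf17 was instead highest in spleen 547, at 9.71 FPKM against 2.75 in spleen 508. The part of plasma cells in the values of Bst2 and Isg20 was not tested.

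Across the spleens, the members were unevenly distributed over the libraries. Of 34 members, 21 were highest in wild-type spleen 5, where 23.6% of all genes tested were highest. The lowest value lay in plckGAPDH spleen 508 for 22 members and in 343 for 11, against 39.6% and 7.96% of all genes. Spleens 508 and 343 lay below all 3 wild-type spleens for 29 and 30 members, against 47.0% and 21.3% of all genes. Spleen 547 did so for 13 members and the unnumbered spleen for 4, against 18.3% and 10.5% of all genes. Relative to the wild-type mean on the log2(FPKM + 1) scale, the members' median was -1.44 in spleen 508 and -1.11 in 343, against -0.41 and -0.09 over all genes. It was -0.23 in spleen 547 and 0.00 in the unnumbered spleen, against 0.33 and 0.18. The lower values of the plckGAPDH group lay mainly in spleens 508 and 343. After median-of-ratios scaling, which brings the typical gene to the same level in every library, the members' medians were -1.11 in 508, -1.05 in 343, -0.48 in 547 and -0.18 in the unnumbered spleen, with all genes between -0.04 and 0.09. The counts of extremes changed with that scaling. Wild-type spleens 5 and 4 were then highest for 14 and 16 members, against 16.6% and 11.7% of all genes. Spleens 508 and 343 were lowest for 15 members each, against 19.6% and 15.3%.

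The wild-type spleens differed among themselves. Wild-type spleen 5 exceeded wild-type spleen 1 in 35 of 35 members, by a median of 1.06 on the log2(FPKM + 1) scale, while 60.6% of all genes were higher in it. Wild-type spleen 4 exceeded wild-type spleen 1 in 27 of 35 members as deposited, and in 34 after median-of-ratios scaling. Wild-type spleen 5 exceeded wild-type spleen 4 in 26 of 35 members as deposited, but in 14 after that scaling, so the order of these 2 depends on the scaling. Wild-type spleen 1 was the lowest of the 3 under the deposited values and both rescalings. In each, its members' median lay above those of spleens 343 and 508 and below that of the unnumbered spleen. It also lay below that of spleen 547 as deposited and after median-of-ratios scaling. Sex, erythroid content and the other ways in which wild-type spleen 5 stood apart cannot be told apart here from any cause of its high values.

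**Figure D4:**
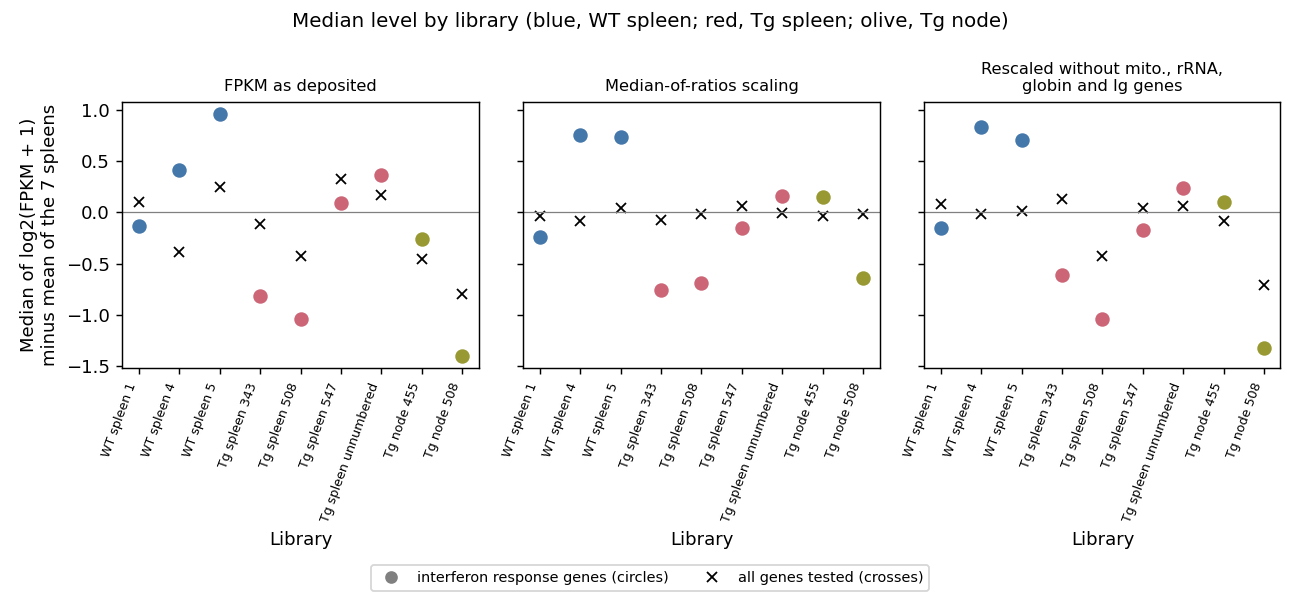
Median over the 34 members tested (circles) and over all 12607 genes tested (crosses) of log2(FPKM + 1) minus the mean of the 7 spleens, in each library, for FPKM as deposited, after median-of-ratios scaling, and after rescaling without mitochondrial, ribosomal RNA, globin and immunoglobulin genes. In all 3 panels the circles of wild-type spleens 4 and 5, the unnumbered plckGAPDH spleen and lymph node 455 lie above their crosses. Those of wild-type spleen 1, plckGAPDH spleens 343, 508 and 547 and lymph node 508 lie below.

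The nodes were set against the plckGAPDH spleens in a limma fit of all 9 samples, where 35 members and 13682 genes had at least 1 FPKM in 2 samples. Tissue and tumour content are not separated by this comparison. None of the 35 members was called (lowest limma FDR 0.359), against 0.0146% of all genes in either direction. With an unadjusted p under 0.05 there was 1 lower member, Gbp3, against 10.7% of all genes. Gbp3 had a log2 fold change of -1.20 (SE 0.43), followed by Irf9 at -1.08 (SE 0.51) and Parp14 at -0.97 (SE 0.53), all at an FDR of 0.359. Gbp3 and Irf9 were the 2 members whose nodes lay below every plckGAPDH spleen, against 30% of all genes. The members' median was -0.53 and that of all genes -0.59, and 29 members were negative against 89.1% of all genes. Under median-of-ratios scaling, which levels the typical gene of every library, the medians were 0.030 and -0.01. Both pairs of medians average over unlike nodes: without node 508 the members' median was -0.04 and that of all genes -0.44, and without node 455 they were -1.02 and -0.75.

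The 2 nodes differed from each other. Node 455 exceeded node 508 in 34 of 35 members, against 73.9% of all genes, by a median of 1.25 against 0.31. After median-of-ratios scaling it did so in 30 members, by 0.90 against -0.03. The ratio of node 455 to node 508 was 21.5 for Ifi44, 12.5 for Oas3 and 10.1 for Oasl2, and 0.98 for Bst2. In animal 508, which gave both tissues, the node lay below the spleen in 31 of 35 members, against 85.8% of all genes, with medians of -0.37 and -0.36. After median-of-ratios scaling, 17 members were lower in the node and 18 higher. Macrophage and monocyte genes summed to 707 FPKM in node 455 and 156 in node 508, and T cell genes to 203 and 75.3. NK cell genes summed to 26.8 and 6.74, and plasmacytoid dendritic cell genes to 55.8 and 43.5. Most of the latter sums came from Tcf4 (22.1 and 20.4 FPKM) and Spib (12.2 and 8.86). In the same list Siglech was at 0.47 and 0.04 FPKM, and Cox6a2 went the other way, at 4.29 and 10.4. B cell genes summed to 306 and 394 FPKM in nodes 455 and 508. Within that list Ms4a1 (59.1 and 45.0 FPKM), Pax5 (9.51 and 5.86), Fcer2a (12.0 and 8.44) and Cr2 (0.94 and 0.17) went the other way. Among the macrophage and monocyte genes Ly6c2 went against the sum, at 19.9 and 40.0 FPKM. The part of these cell types in the difference between the nodes was not tested.

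The genes that make and receive the signal were examined as lists. Of 19 interferon ligand genes, 13 were listed at 0 in all 9 libraries and 1 exceeded 1 FPKM in any, namely Ifng, which encodes interferon gamma. Ifng was at 2.15, 16.4 and 1.92 FPKM, then 5.04, 1.16, 10.9 and 21.9, then 1.66 and 1.23. It was highest in the unnumbered spleen, wild-type spleen 4 and spleen 547. Levels of IFN-alpha and IFN-beta transcripts were thus too low to compare between the groups. Ifnar1 was at 21.6, 15.1 and 31.5 FPKM, then 17.0, 13.5, 18.6 and 21.8, then 9.36 and 10.2. Ifnar2 was at 20.5, 16.9 and 33.6 FPKM, then 12.9, 20.1, 20.4 and 20.6, then 15.9 and 12.9. Both receptor chains had a log2 fold change of -0.30 between the spleen groups, with 95% confidence intervals of -1.15 to 0.55 for Ifnar1 and -1.16 to 0.55 for Ifnar2.

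None of the genes of these lists was called in the spleens. Of the 6 receptor genes, 5 were negative, of 9 receptor signalling genes 6 were negative (median -0.23), and of 19 sensing and induction genes 9 were negative (median 0.01). A further list of 41 interferon-stimulated genes outside the members had 39 tested, of which 32 were negative, 9 were lower at an unadjusted limma p under 0.05 and 0 were higher, with a median of -0.56. Over all genes tested, 4.67% were lower and 4.18% higher at that p. Groups did not overlap for 5 lower genes of that list, against 3.88% of all genes, and for 1 higher one, against 3.39%. The 16 interferon gamma GTPases and chemokines had 9 negative and 7 positive fold changes, with a median of -0.11.

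Cell type markers moved in the same comparison. In the spleens, 11 of 11 macrophage and monocyte genes were tested and 10 were negative (median -0.55), with sums of 534 to 1340 FPKM in wild-type and 301 to 713 in plckGAPDH spleens. Of 8 plasmacytoid dendritic cell genes 5 were negative (median -0.25) and none was called, with sums of 47.4 to 140 and 54.8 to 215 FPKM. Most of each sum came from Spib and Tcf4, with log2 fold changes of -0.11 and 0.25. The sums therefore say little of the other genes of the list. Fold changes of the list ran from -1.38 for Siglech, its 1 gene with no overlap between the spleens, to 0.37 for Pacsin1. NK cell genes had negative log2 fold changes in 7 of 7, with a median of -2.51 and sums of 101 to 243 and 5.17 to 70.01 FPKM. The mean FPKM of 1 of them, Prf1, was higher in plckGAPDH than in wild-type spleens (15.8 against 13.5). Called lower were 2 NK cell genes, against 1.23% of all genes. These were Gzma, a granule protease, at -3.04 (limma FDR 0.0404), and Klrd1, a receptor chain, at -2.80 (limma FDR 0.0486). B cell genes were negative in 9 of 9, with a median of -0.86 and sums of 380 to 1934 and 504 to 962 FPKM. The 2 called among them, against the same 1.23% of all genes, were Cr2, a complement receptor, at -5.44 (limma FDR 0.00169), and Fcer2a, an IgE receptor, at -4.05 (limma FDR 0.0136). T cell genes were negative in 9 of 9 with 0 called and sums of 244 to 473 and 79.2 to 717 FPKM. The mean FPKM of 1 of them, Cd4, was higher in plckGAPDH than in wild-type spleens (30.4 against 28.1). Neutrophil genes had positive log2 fold changes in 10 of 10, with 0 called, but 7 of the 10 had a lower mean FPKM in plckGAPDH than in wild-type spleens. Their sums were 3543, 5.13 and 557 FPKM in wild-type spleens 1, 4 and 5 and 616 to 1414 in plckGAPDH spleens, and Camp and Ly6g were listed at 0 in some libraries. The part of these cell types in the lower values of the response genes was not tested.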

How the data were processed

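RNA of 7 spleens and 2 lymph nodes was sequenced as read pairs of 75 bases from a stranded total RNA kit, per the labels' protocols. The deposited values are FPKM with 2 decimals, made by the authors. Build mm10, RSEM, Bowtie2 2.2.6, STAR 2.4.0a, and Subread 1.5.0-p3 with its featureCounts are named in the submitters' processing notes. The tool behind the FPKM, the annotation and the strand setting were each not given in the sources used here. As the table holds no counts, no count model was fitted, and depth was estimated from the steps of low FPKM: 78.9% to 85.1% of these values lay within 0.1 of a whole fragment, and the largest error on simulated libraries was 0.0472%. No 2 libraries shared more than 0.257% identical values.

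Differences between spleens were tested on log2(FPKM + 1) by limma 3.58.1 (R 4.3.3), using an intensity trend, over all genes with 1 FPKM in 3 spleens. Nodes and plckGAPDH spleens were compared in 1 fit of 9 samples, over genes with 1 FPKM in 2 samples. The limma step was run on simulated data with changes larger than those of most members. That run therefore does not speak for changes of their size. Gene positions come from GENCODE on GRCm38 and promoters from RefSeq on GRCm38.p6. Members, lists and naming rules were chosen with earlier results of these data known, so no list was tested as a set. Values per sample are given for the 8 members with the smallest p in the spleens, for Isg15, Irf7, Irf9, Stat2 and Ifit3, for the 4 with the largest ratio over the spleens among members reaching 5 FPKM, and for the 3 with the smallest p in the nodes. Of other lists, called genes, Ifnar1, Ifnar2 and the highest ligand are named, and 1 further gene of the rule is not reported here. Gbp2, Bst2, Isg20, Ifi44, Siglech, Pacsin1, Spib, Tcf4 and Cox6a2 were singled out after their values were seen. So were Jchain, Tnfrsf17, Ms4a1, Pax5, Ly6c2, Prf1 and Cd4, and the node values of Cr2 and Fcer2a. Alternatives changed the pseudocount, filter, scaling, weights, intensity trend, genes and samples of the fit.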

Additional observations from a re-analysis of the deposited data

How the results depend on the processing

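The number of members called lower in the spleens, 1 as reported, was 0 with a pseudocount of 0.1 or 0.5, without a filter, in a fit of all 9 samples, with immunoglobulin and T cell receptor genes left out, without wild-type spleens 4 and 5, and, as an alternative chosen after seeing the data, without wild-type spleen 5 and plckGAPDH spleen 508. It was 0 to 2 on leaving out each sample, where 0.547% to 1.54% of all genes were called lower. With sample quality weights 2 were called lower and 1 higher, where 7.71% and 7.07% of all genes were, and with immunoglobulin and T cell receptor genes left out 0 genes of the whole table were called by limma (404 lower and 542 higher at an unadjusted p under 0.05). Non-overlapping lower members, 3 as reported, numbered 5 after median-of-ratios scaling (6.62% of all genes). They numbered 6 after rescaling without mitochondrial, ribosomal RNA, globin and immunoglobulin genes (6.64%). On leaving out each sample they numbered 3 to 12, where 4.20% to 14.1% of all genes were lower in this way. The spleen median was 0.065 with sample quality weights, and from -1.02 to -0.36 on leaving out each sample. The median of the nodes was 0.030 after median-of-ratios scaling and from -1.02 to -0.04 on leaving out each sample, with all genes from -0.75 to -0.44. Single genes changed sign with sample quality weights (Ifit1 0.10, Ifit2 0.19, Rtp4 0.34, Isg15 0.44, Irf7 0.48, Rsad2 0.76), without wild-type spleens 4 and 5 (Isg15 0.13, Irf7 0.11, Rsad2 0.86), without wild-type spleen 5 and plckGAPDH spleen 508 (Isg15 0.12, Irf9 0.21, Rsad2 0.78) and without wild-type spleen 5 alone (Rsad2 0.42, with -1.996 to 0.42 on leaving out each sample). In the nodes no member was called in any of 18 alternatives. The quality weights gave wild-type spleen 1 far more weight than the others, and the cause of the other changes was not tested. No paired analysis was possible because the groups compared share only 1 animal number (508). With 3 and 4 spleens a change of the size of most members' medians could not be resolved from the spread, and depth limits genes such as Isg15, with 15 to 202 estimated fragments.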
